A study of Rattus norvegicus with 24 samples.

Results

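The 12 kidneys described here came from rats that had received human ABCB5+ cells by 1 of 2 routes, intraperitoneal (i.p., 6 animals) or intravenous (i.v., 6 animals), among 24 animals sequenced in all. They were chosen by their labelled treatment alone, and every gene with enough reads was compared between the routes, 12778 of the 17334 genes in the files. All animals were male PKD/Mhm (Cy/+) rats, heterozygous for a mutation of Anks6 that gives slowly growing kidney cysts, and all were 8 months old at collection. The cells were stromal cells from human skin carrying the surface transporter ABCB5, injected once a month for 6 months. The study added the i.p. route because cells given into a vein can lodge in the lungs. Untreated Cy/+ rats (Ctrl, 6 animals) give the background here, and rats given cell-conditioned medium (CoCM, 6 animals) entered the fit only to estimate the spread between animals. The left kidney of each animal was snap-frozen and read as 1 bulk RNA library, with 9304630 to 14034659 counts per i.p. library and 11354063 to 14075855 per i.v. library; 3 counts, taken as the floor, are 0.322 CPM in the smallest. In such a library, fewer cells of a type and less RNA per cell cannot be told apart. The study told heterozygous rats from non-cystic ones by palpating the abdomen, and the level of the Anks6 transcript does not check a genotype.

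The Cy/+ kidney fills with cysts lined by poorly differentiated tubule cells, which is accompanied by inflammation, scarring and a loss of the oxidative metabolism of the proximal tubule. Cells given i.p. are placed in the abdominal cavity without entering the blood directly, while cells given i.v. pass the lungs first. In either case a difference between routes would have to be read in the host kidney as a change in its tubule segments, its immune and stromal cells or its signalling genes. Genes named below were grouped under these headings. Levels are given in CPM (counts scaled to the same library total), which compare a gene between animals but not genes with each other, and differences as log2 fold changes of i.p. over i.v. with the standard error (SE).

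Before any comparison of the routes, 3 of the 12 kidneys stood apart from the rest, of which 1 was i.p. (animal 38) and 2 were i.v. (animals 36 and 37). A principal component analysis of log2 CPM put 56.3% of the variance on the first component, where i.p. 38 scored 80.8, i.v. 36 scored 87.1 and i.v. 37 scored 86.3, while the other 9 animals lay between -36.1 and 3.31. Spp1, the gene of osteopontin, which injured tubules secrete, was at 426 to 670 CPM in these 3 kidneys and at 6600 to 11600 CPM in the other 9. Havcr1 (KIM-1, made by injured proximal tubule) was at 4.18 to 17.5 CPM against 75.2 to 225 CPM, and Lcn2 (NGAL, made by injured distal tubule) at 9.93 to 10.7 CPM against 85.6 to 173 CPM. The Ctrl kidneys did not reach down to these levels, with 6970 to 11000 CPM of Spp1 and 91.1 to 167 CPM of Havcr1. In the 3 kidneys, then, 3 textbook injury genes were low together, and the labels give these animals the same genotype, age and treatment as the rest of their groups. Since heterozygous rats were picked by palpation and no value here checks a genotype, whether these kidneys were cystic was not tested, and it bears on every value given with all animals. CoCM 39, with a score of 97.4, was another library of this kind. Results below are given with all animals and without these 4 libraries.

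**Figure D1:**
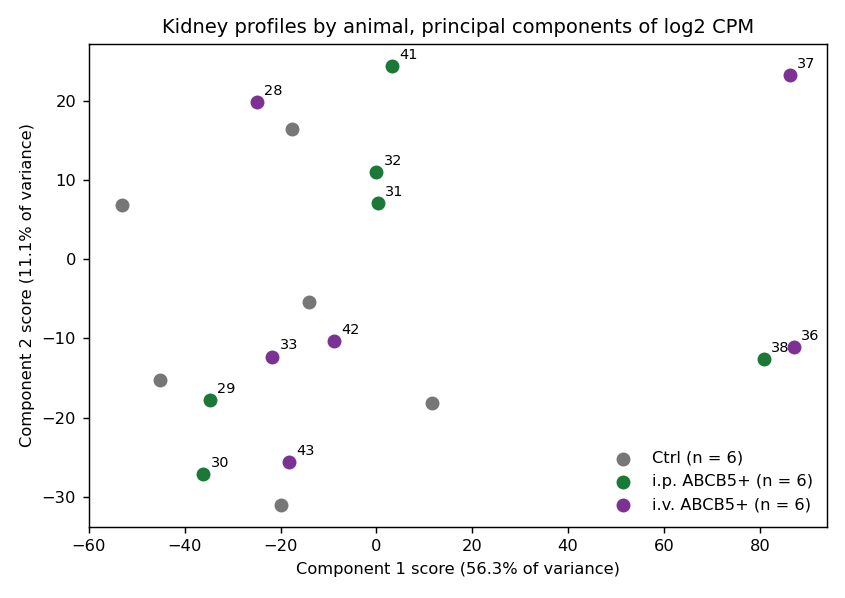
Each point is 1 kidney, placed by its scores on the first (x axis, 56.3% of variance) and second (y axis, 11.1%) principal components of log2 CPM, with 6 animals in each of the Ctrl, i.p. and i.v. groups; numbers are animal numbers. i.p. 38, i.v. 36 and i.v. 37 lie at the far right, and the other animals of both routes are mixed.

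The routes did not separate on this axis. The mean first component score was 2.28 ± 42.5 (SD, n = 6) after i.p. and 16.6 ± 54.5 (SD, n = 6) after i.v. cells, with a two-sided exact permutation p of 0.693 over 924 divisions of the 12 animals. The second component gave an exact permutation p of 0.987 and the third 0.355. The smallest p this design allows is 0.00216. The spread between animals of a group, as the median SD of log2 CPM over genes, was 0.278 after i.p. and 0.317 after i.v. cells and fell to 0.215 in 5 i.p. and 0.186 in 4 i.v. animals when the kidneys that stood apart were left out; it was 0.232 in Ctrl.

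No gene differed between the routes after adjustment in edgeR, and 1 did in DESeq2. In edgeR's quasi-likelihood test with Benjamini-Hochberg adjustment over all 12778 genes, 0 genes (0.0%) passed an adjusted p of 0.05, and 274 genes (2.14%) had an unadjusted p under 0.05, of which 88 (0.689%) were higher and 186 (1.46%) lower in the i.p. kidneys. Evenly spread p-values would put 5% of genes there. The gene that DESeq2 called was Ifrd1, at an adjusted p of 0.0499. The same fit gave 226 genes (1.77%) at unadjusted p for i.p. against Ctrl and 738 (5.78%) for i.v. against Ctrl, of which 567 (4.44%) were higher after i.v. cells, and 0 genes after adjustment in either. These comparisons share the Ctrl animals. Whether the routes differ in their distance from Ctrl is the route comparison itself. In the fit without the 4 libraries the unadjusted calls numbered 146 of 12884 genes (1.13%), 58 (0.45%) higher and 88 (0.683%) lower after i.p. cells, and 0 genes passed adjustment in edgeR.

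**Figure D2:**
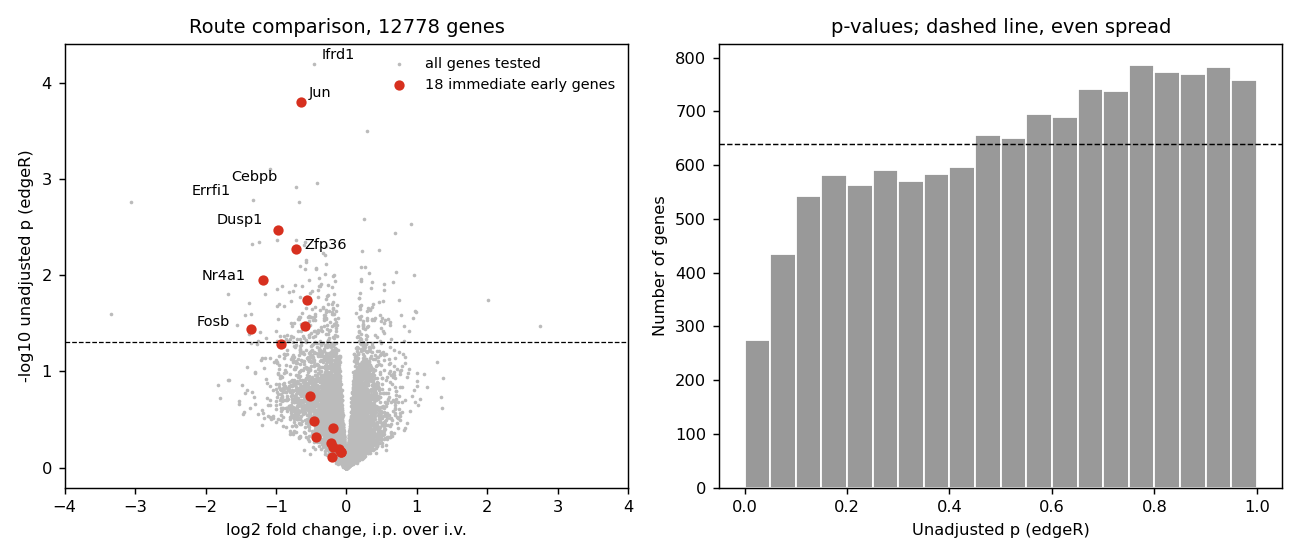
Left, each point is 1 gene tested, with its log2 fold change (i.p. over i.v.) on the x axis and -log10 of the unadjusted edgeR p on the y axis; the dashed line marks the threshold of 0.05 and the red points are the 18 immediate early genes, all left of 0. Right, the number of genes in each of the bins of unadjusted p, with a dashed line at the height of an even spread; the bins at low p hold fewer genes than that line.

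A missed threshold does not show that the routes act alike, so the size of difference that the data allow is given. The 95% interval of the log2 fold change lay inside -1 to 1, a doubling in either direction, for 10592 of 12778 genes (82.9%). The median half-width of the interval was 0.356 on the log2 scale, or 1.28-fold. Among the 11820 genes with an average log2 CPM above 1 the share inside was 86.6%. For most genes the data thus limit a route difference to less than a doubling, and smaller differences are not excluded.

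In 8 genes (0.0626% of those tested) the 6 i.p. animals and the 6 i.v. animals did not overlap, 4 higher (0.0313%) and 4 lower (0.0313%) in the i.p. kidneys. When the routes do not differ, the chance of such a separation is 0.00216 per gene, a larger share than the 0.0626% seen. The lack of overlap in these 8 genes is therefore no evidence of a route difference. Lower in every i.p. animal were Jun, Ahrr, Ankrd33b and Chrne, and higher were LOC100911627, Erg28, Apc2 and Tmed10. The changes ran from -1.24 for Ahrr, the repressor of the aryl hydrocarbon receptor, to 0.34 for Apc2. The change of Tmed10, a cargo receptor of the secretory pathway, was 0.10 with an unadjusted edgeR p of 0.121. The 5 genes other than Jun, Erg28 and LOC100911627 were named for the lack of overlap, after their values were seen.

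Of the 48 gene lists, the immediate early genes held the most members at an unadjusted p. These genes, most of them transcription factors such as Jun, Fos and Egr1 and feedback regulators such as Dusp1, are transcribed within minutes of a stimulus without new protein synthesis, and their transcripts are short-lived. All 18 members of the list had a lower fitted level after i.p. than after i.v. cells, where 50.2% of all genes did, and 7 of 18 (38.9%) had an unadjusted p under 0.05, against 1.46% of all genes tested in that direction. The median log2 fold change of the list was -0.49, and that of all genes was within 0.01 of 0. Each of the 18 genes had an edgeR adjusted p of 1, so none passed the test across all genes. The list had been seen to lean this way in earlier results of these animals, and its members are transcribed together, so the count describes these kidneys and is no independent evidence.

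Jun, the partner of Fos in the transcription factor AP-1, was lowest at 232, had a median of 270 and was highest at 366 CPM in the i.p. kidneys, and ran from 386 over a median of 444 to 510 CPM in the i.v. kidneys. No i.p. animal reached the lowest i.v. animal. The log2 fold change was -0.64 (SE 0.141, 95% interval -0.93 to -0.35), a level 1.56-fold higher after i.v. cells. The exact permutation p was 0.00216, the smallest possible. Jun was named for its small edgeR p in these same animals, so the permutation p is no further check. Jun did not pass adjustment in edgeR. In Ctrl kidneys Jun ran from 278 to 342 CPM, so the i.v. animals lay above all Ctrl animals and the i.p. animals on both sides of them.

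Dusp1, the phosphatase that switches off MAP kinases, ran from 62.4 over a median of 77.4 to 123 CPM after i.p. cells and from 103 over 164 to 248 CPM after i.v. cells. The 2 groups overlapped in the 2 highest i.p. animals, 29 and 38. The log2 fold change was -0.98 (SE 0.298), with an exact permutation p of 0.00866. Zfp36 (tristetraprolin, which speeds the decay of cytokine mRNAs) ran from 155 over 186 to 318 CPM after i.p. and from 196 over 348 to 506 CPM after i.v. cells. Its log2 fold change was -0.72 (SE 0.235), and all i.p. animals lay below the i.v. mean of 334 CPM.

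The nuclear receptors Nr4a1 and Nr4a2 are induced by calcium and cAMP signals. Nr4a1 ran from 33.2 over 60.1 to 142 CPM after i.p. and from 85.2 over 157 to 244 CPM after i.v. cells, a log2 fold change of -1.18 (SE 0.428). Nr4a2 ran from 6.55 over 7.58 to 9.54 CPM and from 6.6 over 11.1 to 18.1 CPM, a log2 fold change of -0.57 (SE 0.222) with an exact permutation p of 0.0584. For Nr4a2 the groups thus overlapped widely, and i.v. 37 was as low as the i.p. animals. Btg2, an antiproliferative gene, ran from 101 over 129 to 200 CPM after i.p. and from 114 over 213 to 252 CPM after i.v. cells (log2 fold change -0.59, SE 0.26). Fosb, another AP-1 subunit, had the largest fitted difference of the list, -1.36 (SE 0.611), from levels of 2.07 over 8.6 to 21.9 CPM and 13.7 over 23.2 to 44.5 CPM.

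The other 11 members were also fitted lower after i.p. cells and had an unadjusted p over 0.05. Atf3, a stress-induced transcription factor, came closest to that threshold with -0.94 (SE 0.457, unadjusted edgeR p 0.0523). Egr1 gave -0.52 (SE 0.38), Fos -0.45 (SE 0.454) and Egr3 -0.43 (SE 0.605). The smallest were Ier3 with -0.07 (SE 0.186), Klf4 with -0.08 (SE 0.203) and Junb with -0.10 (SE 0.217). The list was therefore uneven, with Jun, Dusp1 and Nr4a1 far from 0 and Junb and Klf4 near it.

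**Figure D3:**
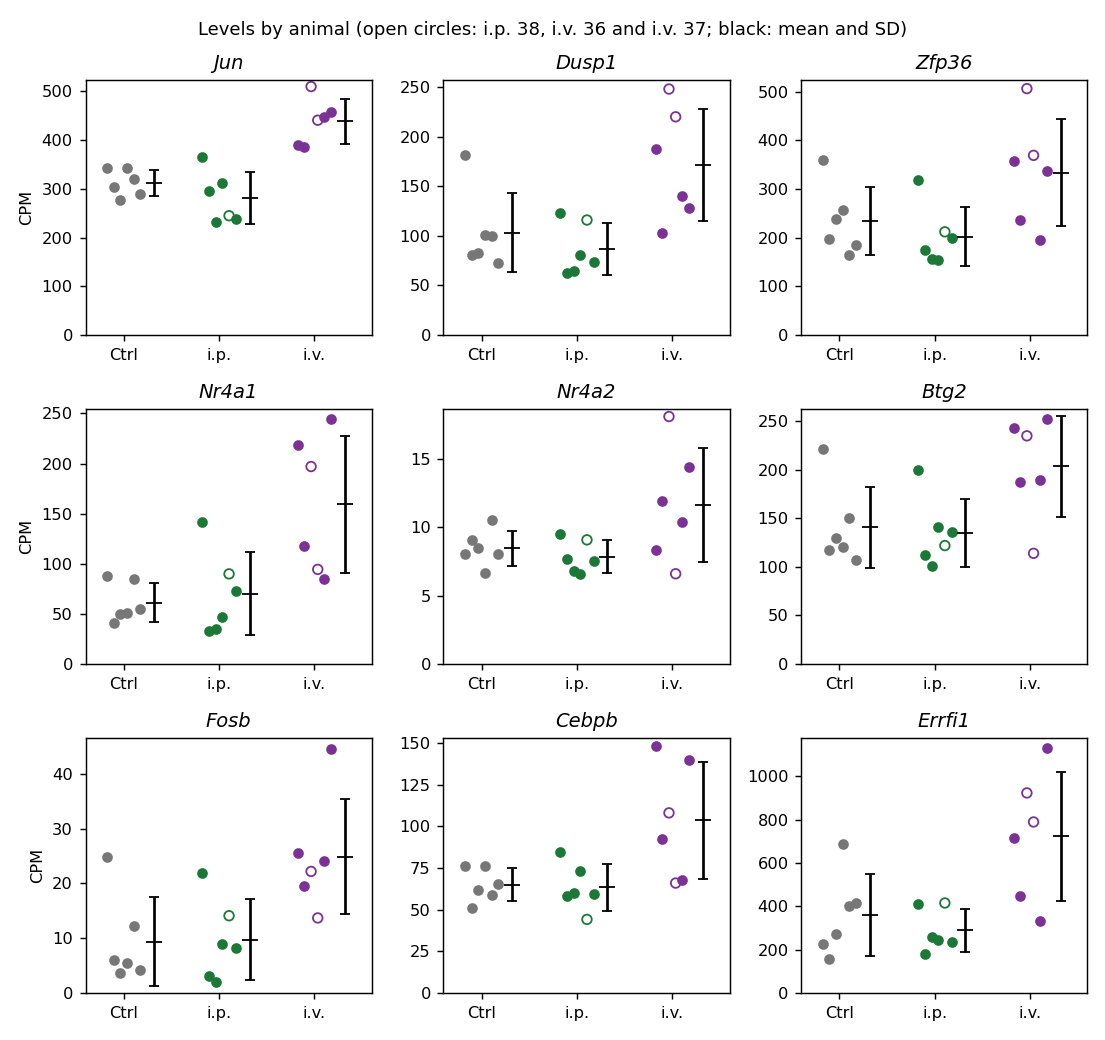
Level in CPM (y axis, from 0) of Jun, Dusp1, Zfp36, Nr4a1, Nr4a2, Btg2, Fosb, Cebpb and Errfi1 in each kidney of the Ctrl, i.p. and i.v. groups (6 animals each; filled circles, with open circles for i.p. 38, i.v. 36 and i.v. 37); black bars are the mean and SD. Jun shows no overlap between routes, and in the other genes the upper i.p. animals, often i.p. 29, reach into the i.v. range.

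The animals did not all follow their group. The mean of the 18 genes, each as its log2 CPM less the gene's mean over all libraries, ran from -0.66 to 0.65 after i.p. cells (median -0.26), from -0.38 to 0.72 after i.v. cells (median 0.43) and from -0.34 to 0.67 in Ctrl (median -0.20). i.p. 29 was the highest i.p. animal and lay among the upper i.v. animals, and i.v. 37 was the only i.v. animal below 0. Leaving out 1 animal at a time moved the list's median between -0.73 (without i.p. 29) and -0.38 (without i.p. 31) and the number of members at unadjusted p between 5 and 9. Without the 4 libraries that stood apart, all 18 genes were again fitted lower after i.p. cells, with a median of -0.51 and 7 of 18 (38.9%) at unadjusted p against 0.683% of all genes; Atf3 (-1.19) joined these and Zfp36 (-0.49) left them.

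Set beside Ctrl, the difference lay mostly on the i.v. side. After i.v. cells 15 of 18 members were fitted above Ctrl and 3 below it, where 47.4% of all genes were below, with a median of 0.43. In that direction 6 of 18 (33.3%) had an unadjusted p, against 4.44% of all genes, and 0 of 18 in the other direction, against 1.34%, by edgeR. After i.p. cells 12 of 18 were fitted below Ctrl, where 49.0% of all genes were, with a median of -0.12 and 0 of 18 at an unadjusted p in either direction, by edgeR, against 0.509% of all genes lower and 1.26% higher. Nr4a1 was 1.38 and Jun 0.49 above Ctrl on the log2 scale after i.v. cells, and 0.19 above and 0.15 below Ctrl after i.p. cells. The 2 comparisons share the Ctrl animals, and the first shares the i.v. animals with the route comparison.

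The bases before the start sites of 3 of these genes are shown because many immediate early genes carry the cAMP response element there, to which the factor CREB binds, and because cAMP drives cyst growth. Each gene shown holds a match, so the 3 do not stand for the list. They are RefSeq sequences of assembly GRCr8, while the submitters' processing notes name rn6, and cover 250 bases up to the start site, read 5′ to 3′ on the gene's strand: Dusp1 at chr10:17184603-17184852 (plus strand), Btg2 at chr13:48087691-48087940 (minus strand) and Nr4a1 at chr7:134259888-134260137 (plus strand). Capitals mark each TGACG or, on the other strand, CGTCA.
Dusp1: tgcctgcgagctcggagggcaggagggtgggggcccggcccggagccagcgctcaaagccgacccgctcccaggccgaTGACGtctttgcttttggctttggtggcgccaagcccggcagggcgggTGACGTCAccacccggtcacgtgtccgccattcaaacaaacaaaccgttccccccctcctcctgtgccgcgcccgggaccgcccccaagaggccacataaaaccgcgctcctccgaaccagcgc
Btg2: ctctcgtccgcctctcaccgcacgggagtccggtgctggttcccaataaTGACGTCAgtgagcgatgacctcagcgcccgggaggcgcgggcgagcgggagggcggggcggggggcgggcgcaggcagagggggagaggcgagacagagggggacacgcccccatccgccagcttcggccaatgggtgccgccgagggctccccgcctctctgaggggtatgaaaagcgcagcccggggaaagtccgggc
Nr4a1: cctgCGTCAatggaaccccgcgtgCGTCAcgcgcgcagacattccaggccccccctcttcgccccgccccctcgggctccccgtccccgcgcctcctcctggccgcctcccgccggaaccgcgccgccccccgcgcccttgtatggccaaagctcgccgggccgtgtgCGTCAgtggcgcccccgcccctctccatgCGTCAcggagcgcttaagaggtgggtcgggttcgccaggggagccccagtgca

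Dusp1 and Btg2 each held the full element TGACGTCA, which reads the same on both strands and contains both short forms, and Nr4a1 held CGTCA 4 times and no full element. Of the 18 genes 12 had an entry in the promoter table. In these 250-base windows TGACG or CGTCA stood before 8 of 12 immediate early genes (66.7%), 5205 of all 27457 genes in the table (19.0%) and 2786 of the 10323 tested genes with an entry. TGACGTCA stood before 3 of 12 (25.0%), 1.7% of all genes and 2.79% of the tested ones. Of the list members with an entry and an unadjusted p under 0.05, 4 of 6 (66.7%) held TGACG or CGTCA, the same share as the list. A match is a run of letters and does not show that a factor was bound in these kidneys. Whether cAMP had a part in the route difference was not tested.

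The genes outside the list with the smallest unadjusted p in this direction had varied roles. Ifrd1, a stress-induced transcriptional coregulator, had the smallest p of all genes (6.45e-05 unadjusted and 0.824 adjusted by edgeR). It ran from 50.7 over 58.9 to 68 CPM after i.p. and from 63.9 over 82.4 to 94.1 CPM after i.v. cells, and 5 of 6 i.p. animals lay below the whole i.v. range. The log2 fold change was -0.46 (SE 0.0931), and -0.34 without the 4 libraries. Errfi1, a feedback inhibitor of the EGF receptor, ran from 178 over 250 to 415 CPM after i.p. and from 331 over 751 to 1130 CPM after i.v. cells, a log2 fold change of -1.32 (SE 0.37) that was -1.31 without the 4 libraries. Cebpb, a transcription factor of the acute phase response, was at a mean of 63.3 CPM after i.p. and 104 CPM after i.v. cells (-0.71, SE 0.192; -0.73 without the 4 libraries). Csrnp1, a nuclear protein induced by AXIN1, gave -0.68 (SE 0.191) and Noct (nocturnin, a rhythmic enzyme) -0.71 (SE 0.225). Ndel1, a dynein regulator, gave -0.42 (SE 0.113) and the kinesin Kif27 -0.98 (SE 0.31). Of these, Noct (-0.37) and Kif27 (-0.52) missed the unadjusted threshold without the 4 libraries.

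Slc22a13, a transporter of organic anions, was also among the 10 lower genes with the smallest p. Its fitted log2 fold change of -3.06 (SE 0.86) rested on i.v. 36 with 35.7 CPM and i.v. 37 with 87.8 CPM, while the other 4 i.v. animals lay between 1.14 and 2.52 CPM and the i.p. animals between 1.28 and 4.96 CPM. The medians of the routes were 2.2 and 2.3 CPM, the exact permutation p was 0.381, and without the 4 libraries the change was 0.52 in the other direction.

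The 10 genes with the smallest p in the other direction had log2 fold changes of 0.20 to 0.70. Erg28, which scaffolds sterol synthesis enzymes, ran from 38.9 to 39.9 CPM in the i.p. kidneys and from 30.2 to 37.5 CPM in the i.v. kidneys, without overlap, a log2 fold change of 0.20 (SE 0.0707). LOC100911627 was at 23.2 to 27.4 CPM after i.p. and 19.8 to 22 CPM after i.v. cells, also without overlap (0.29, SE 0.0689). Leprotl1, a membrane protein of the endosome, gave 0.25, Rabgef1, an activator of the endosomal GTPase Rab5, 0.23, Orai3, a calcium channel subunit, 0.21, Dennd2d, an activator of Rab GTPases, 0.32, and the transcriptional repressor Mypop 0.46. The reading frame C7h19orf25 gave 0.26. The largest were Sfta2, a secreted protein, with 0.68 (SE 0.21) and Guca2a (guanylin, an activator of guanylate cyclase) with 0.70 (SE 0.246). Guca2a reached 64.7 CPM in i.p. 32 and 52.2 CPM in i.p. 38 and no more than 26.8 CPM in any i.v. animal, but its exact permutation p was 0.0952. Without the 4 libraries Mypop, C7h19orf25, Guca2a, Dennd2d and Orai3 missed the unadjusted threshold.

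Tubule segments came next. All 12 early proximal tubule genes and all 6 late proximal tubule genes tested were fitted lower after i.p. cells, with medians of -0.55 and -0.80, but 0 of 18 had an unadjusted p under 0.05 in edgeR against a background of 1.46%. The early list holds the transporters of the convoluted part. Slc5a2 (SGLT2, glucose uptake) was lowest at 79.5, had a median of 124 and was highest at 173 CPM after i.p. and ran from 102 over 157 to 343 CPM after i.v. cells (-0.60, SE 0.323), and Cubn (cubilin, protein uptake) gave -0.45 (SE 0.276). Lrp2 (megalin, its partner) gave -0.60 (SE 0.39). In the late list Slc6a18, an amino acid transporter, reached 708 CPM in i.v. 36 and 891 CPM in i.v. 37 and stayed between 74.8 and 322 CPM in the i.p. kidneys (-0.76, SE 0.638), and the organic anion transporter Slc22a7 behaved alike with 13.5 and 27 CPM in these 2 animals (-1.68, SE 1.05). Without the 4 libraries the late list turned to 0.44, with 0 of 6 members lower, and Slc6a18 to 0.37 and Slc22a7 to 0.72. The early list moved to -0.26 with 11 of 12 still lower, Slc5a2 to -0.62, Cubn to 0.00 and Lrp2 to 0.01. The late proximal list thus had opposite signs in the 2 fits.

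Of the 8 metabolic lists given here, the medians of 5 changed sign without the 4 libraries. With all animals, 26 of 29 genes of fatty acid oxidation and PPAR targets, 28 of 33 peroxisomal, 17 of 19 branched-chain amino acid degradation and 23 of 25 citrate cycle genes were fitted lower after i.p. cells, with medians of -0.23, -0.27, -0.17 and -0.12. These medians were 0.09, 0.09, 0.13 and 0.07 without the 4 libraries. Gluconeogenesis moved from -0.62 to -0.06 and glutathione metabolism from -0.25 to 0.16. Cyp4a1, a fatty acid hydroxylase induced by PPAR alpha, was the 1 gene of 29 in its list at an unadjusted p (0.0473 by edgeR). Over all genes 1.46% were lower at that threshold. Cyp4a1 was at 35.6 to 46.3 CPM after i.p. and 23.9 to 102 CPM after i.v. cells. It gave -0.58 (SE 0.274) with all animals and -0.29 (SE 0.303) without the 4 libraries, where it missed the unadjusted threshold. Slc27a2, a fatty acid transporter, went from -0.72 to -0.03. Glycolysis had a median of 0.14 with all animals, with 11 of 16 genes fitted higher after i.p. cells, and 0.09 without the 4 libraries. The 72 oxidative phosphorylation genes had a median of 0.02 with all animals, with 33 of 72 fitted lower after i.p. cells. Without the 4 libraries the median was 0.17 and 0 of 72 were fitted lower. In either fit 0 of 72 had an unadjusted p under 0.05 in edgeR. Over all genes the shares were 0.689% higher and 1.46% lower, and 0.45% and 0.683% without the 4 libraries. The scores of 9 of the 48 lists, all metabolic, mitochondrial or renin-angiotensin, were higher in each of the 3 kidneys than in all of the other 9, and those of 14 lists, most of them injury, immune or matrix lists, were lower.

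**Figure D4:**
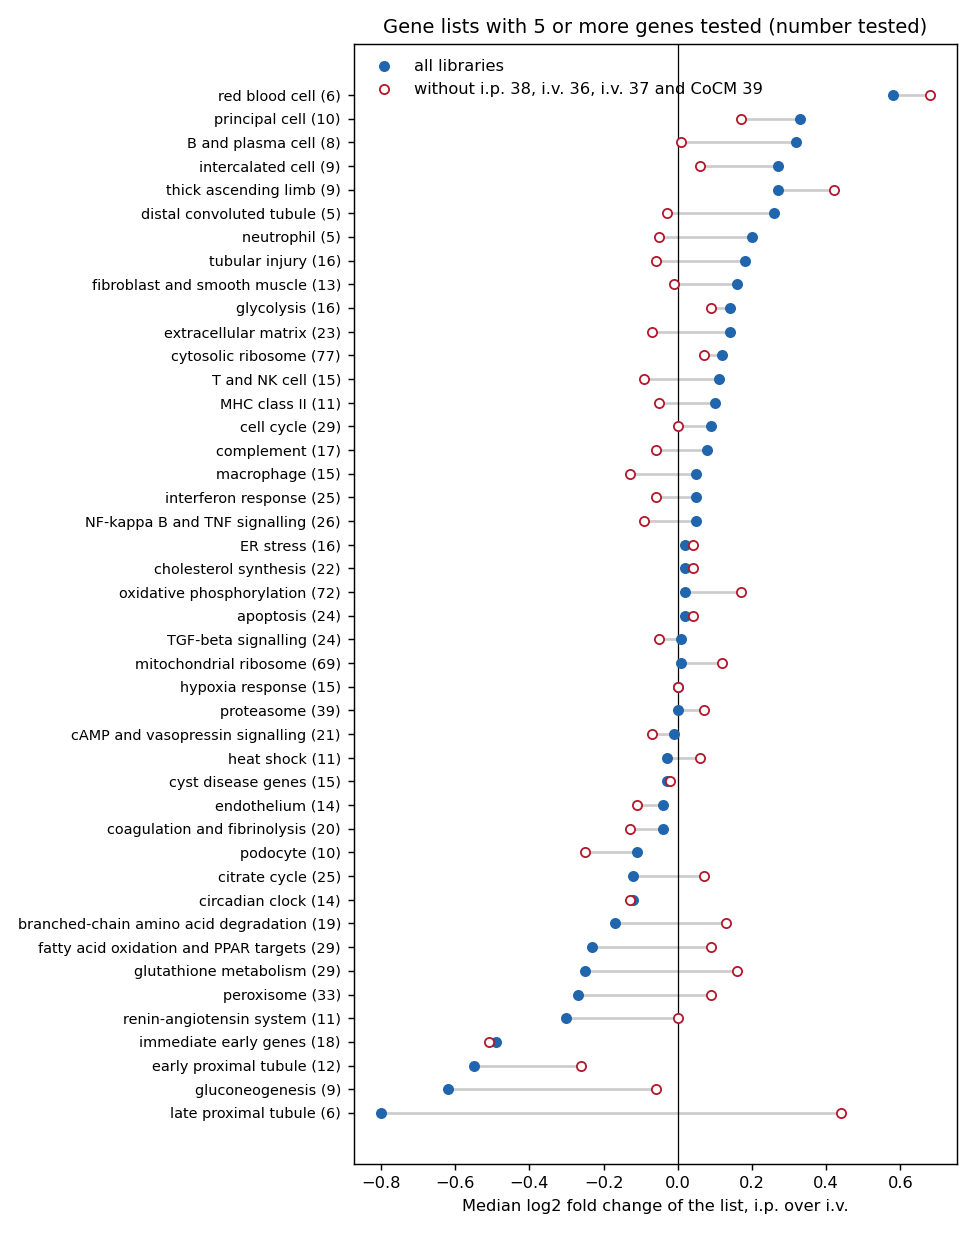
Median log2 fold change (x axis, i.p. over i.v.) of each gene list with 5 or more genes tested (y axis, number of genes tested in brackets), with all libraries (filled) and without i.p. 38, i.v. 36, i.v. 37 and CoCM 39 (open). The immediate early list stays near -0.5, while the late proximal tubule list moves from -0.80 to 0.44 and the peroxisome list from -0.27 to 0.09.

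In the collecting duct, all 10 principal cell genes were fitted higher after i.p. cells with a median of 0.33, and 1 of 10 had an unadjusted p against 0.689% of all genes. This was Aqp2, the water channel that vasopressin inserts, which ran from 265 over 438 to 762 CPM after i.p. and from 228 over 345 to 423 CPM after i.v. cells (0.53, SE 0.244, exact permutation p 0.141). The 3 highest animals were i.p. 41, i.p. 38 and i.p. 30, all above the i.v. range, and the other 3 i.p. animals lay within it. Avpr2, the vasopressin receptor, gave 0.38 (SE 0.204). All 10 genes were again fitted higher without the 4 libraries, with a median of 0.17, and Aqp2 gave 0.46 (SE 0.276). Intercalated cell genes went from 0.27 to 0.06, and the 5 distal convoluted tubule genes from 0.26 to -0.03, with 3 of 5 then fitted lower. Umod (uromodulin of the thick ascending limb) and Slc12a3 (the thiazide target) differed by 0.00 (SE 0.485) and 0.26 (SE 0.347) with all animals, and by 0.47 (SE 0.494) and -0.03 (SE 0.308) without the 4 libraries. Together with Umod medians of 4950 and 3770 CPM, these levels show kidney tissue in both groups.

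Injury, immune and scar genes gave no difference that exceeded the spread. Of 16 tubular injury genes 14 were fitted higher after i.p. cells with all animals (median 0.18), and 12 of 16 lower without the 4 libraries (median -0.06). In either fit 0 of 16 had an unadjusted p under 0.05 in edgeR. Over all genes the shares were 0.689% higher and 1.46% lower, and 0.45% and 0.683% without the 4 libraries. At such shares 0 of 16 does not set the list apart from other genes. Spp1 differed by 0.31 (SE 0.686) and then by 0.04 (SE 0.216), Havcr1 by 0.20 (SE 0.745) and then by -0.06 (SE 0.369), and Lcn2 by 0.22 (SE 0.677) and then by -0.06 (SE 0.334). The error of these genes was thus smaller without the 3 kidneys, and the differences were near 0. Krt19, a keratin of dedifferentiated tubule, gave 0.55 (SE 0.499), S100a6, a calcium-binding protein, 0.32 (SE 0.317), Sox9, a factor of tubule repair, -0.21 (SE 0.199) and Krt8 -0.01 (SE 0.217).

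The macrophage, T and NK cell, interferon, and B and plasma cell lists had medians of 0.05, 0.11, 0.05 and 0.32 with all animals. Without the 4 libraries these were -0.13, -0.09, -0.06 and 0.01. With all animals 4 of 15, 2 of 15, 7 of 25 and 0 of 8 genes were fitted lower after i.p. cells. Without the 4 libraries 15 of 15, 13 of 15, 17 of 25 and 4 of 8 were. In these lists 0 genes had an unadjusted p under 0.05 in edgeR with all animals, against 0.689% of all genes higher and 1.46% lower. Cd68 (macrophages) differed by 0.02 (SE 0.511), Cd3e (T cells) by 0.03 (SE 0.582) and Cd74 (MHC class II) by 0.08 (SE 0.373). The cytotoxic genes Prf1 and Gzmb gave 0.21 (SE 0.302) and -0.21 (SE 0.437), Cd8b 0.40 (SE 0.427) and Nkg7 -0.12 (SE 0.507). The plasma cell genes Tnfrsf17 and Mzb1 gave 0.47 (SE 0.541) and 0.41 (SE 0.627), and the antiviral genes Rsad2, Ifit2 and Mx2 gave 0.20, -0.15 and -0.09. In these lists no single gene differed detectably by route at this depth and number of animals. The lists as a whole were not tested.

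Of the 13 fibroblast and smooth muscle genes 2 had an unadjusted p, both contractile and both higher after i.p. cells, against a background of 0.689%. Myh11, the smooth muscle myosin, ran from 107 over 126 to 254 CPM after i.p. and from 70.4 over 97.4 to 132 CPM after i.v. cells (0.55, SE 0.235, exact permutation p 0.0433), and gave 0.66 (SE 0.26) without the 4 libraries. Its highest animal was i.p. 41. Cnn1 (calponin) gave 0.81 (SE 0.388, exact permutation p 0.182), and 0.89 without the 4 libraries, where it missed the unadjusted threshold and Myh11 was the 1 member left under it. Acta2 (smooth muscle actin) gave 0.38 (SE 0.282). The fibroblast receptors Pdgfrb and Pdgfra gave -0.20 (SE 0.291) and -0.09 (SE 0.345), and Col1a1, the main collagen of scars, 0.29 (SE 0.518). These 2 receptors were the only members of the list fitted lower after i.p. cells with all animals, and the list's median was 0.16, or -0.01 without the 4 libraries. The endothelial gene Pecam1 gave 0.02 (SE 0.169), while 11 of the 14 endothelial genes were fitted lower after i.p. cells (median -0.04). Without the 4 libraries 13 of 14 were fitted lower (median -0.11).

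Cyst disease genes, which encode proteins of the cilium and of the polycystin and Anks6 complexes, had a median of -0.03 over 15 genes. Anks6 itself, the gene mutated in this line, was the 1 member of 15 at an unadjusted p (0.00853 by edgeR), against 1.46% of all genes lower. It ran from 49.2 over 55.6 to 62.9 CPM after i.p. and from 55.4 over 70.2 to 118 CPM after i.v. cells, with the 2 highest values in i.v. 37 and i.v. 36. The log2 fold change was -0.43 (SE 0.15), and -0.17 (SE 0.128) without the 4 libraries, where Anks6 missed the unadjusted threshold. Nek8, the kinase that Anks6 activates, gave -0.15 (SE 0.11), the ciliary protein Nphp4 0.14 (SE 0.141) and Dnajb11, a chaperone of the endoplasmic reticulum, 0.06 (SE 0.0978). Their part in the difference is given by the change without them.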

How the data were processed

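Bulk RNA-seq libraries of left kidneys (BGISEQ-500) from 24 rats were analysed, 6 per group; each label carries its own animal number, so replicates are separate animals. Per the submitters' processing notes, the authors used Trim Galore 0.6.4, kallisto 0.4.6 (as written there) and rn6; the strand of the libraries is not given in the sources used here, so reads of overlapping and antisense genes cannot be told apart. The authors deposited estimated counts and TPM per Entrez gene. No replicates were pooled, and within the i.p. and the i.v. group every pair of libraries differed by more than counting noise. Symbols came from RefSeq (GRCr8) for 17179 of 17334 identifiers.

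The estimated counts were rounded and scaled by TMM, genes with few counts were removed with filterByExpr, and all 24 libraries were fitted with a mean per group in edgeR 4.0.16 (R 4.3.3, quasi-likelihood F-test, Benjamini-Hochberg adjustment over 12778 genes, threshold 0.05). The SE is the log2 fold change divided by the square root of F. For single genes and component scores, an exact permutation test (two-sided) took all 924 divisions of 12 animals into 6 and 6. Lists were described by counts and medians, with no test. Alternatives used DESeq2 1.42.0, limma 3.58.1 (on log2(TPM + 1) and with voom quality weights) and sva 3.50.0, other filters and scaling, and left out libraries; the study's methods name DESeq2. The code was tested on simulated data.

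The members, the 48 gene lists and the libraries left out were chosen with earlier results of these data known. Genes were named by rule: the 10 with the smallest unadjusted p in each direction above an average log2 CPM of 1; a panel of 18 genes, 17 of them tested, of which 2 are not reported here; and, for the lists described most fully, the 2 members with the smallest p in each direction. The remaining immediate early genes, the genes without overlap and those singled out in the closing section were added after their values were seen.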

Additional observations from a re-analysis of the deposited data

Results flagged for a closer look

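Each value over the i.p. or the i.v. animals was examined for 1 animal that lay far from the other 5, by Dixon's test at the 95% level. Of 244 sets of 6 values 30 (12.3%) held such an animal, where chance gives about 1 in 20, or 12.2; 27 of the 30 were i.p. 38, the i.p. kidney that stood apart. Genes of 1 list move together, so these are not separate observations. In the i.v. group 2 kidneys stood apart, and this test does not detect a pair.

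Animal i.p. 38 was low in injury, immune and matrix genes. As list scores, the mean over a list of log2 CPM less each gene's mean over all libraries, it had -1.83 for tubular injury, -1.60 for fibroblast and smooth muscle, -1.70 for macrophage, -1.98 for T and NK cell, -2.82 for B and plasma cell, -1.79 for extracellular matrix, -0.816 for interferon response, -2.05 for complement, -1.14 for NF-kappa B and TNF signalling and -1.06 for cell cycle. It was high for early proximal tubule with 0.497, and its first component score was 80.8. In log2 CPM it was lowest in Spp1 (8.73), Havcr1 (2.32), Lcn2 (3.34), Col1a1 (5.87), Cd68 (3.53), Cd3e (1.07), Cd74 (9.99), Krt19 (4.18), S100a6 (5.79), Sox9 (6.21), Angptl4 (0.892), Cd8b (0.578), Nkg7 (-0.634) and Mzb1 (-0.634), and highest in Dnajb11 (7.35).

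The other 3 values were single. i.p. 41 had a log2 CPM of 4.10 in Mypop, i.p. 32 had a score of 2.68 for the urothelium list, of which 2 genes were tested, and i.v. 28 had a score of -0.155 for the cyst disease genes.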

How the results depend on the processing

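No paired analysis was possible because no animal number occurs in 2 groups. In edgeR and limma 0 genes passed adjustment under every alternative that was run; DESeq2 called 1 (Ifrd1). The number of genes at an unadjusted p, 274 in the report, was 179 in a fit to the 12 i.p. and i.v. samples alone, 886 with voom quality weights, 507 with the first surrogate variable, 146 without the 4 libraries and 164 without the 3 i.p. and i.v. kidneys in a fit of both groups only, and 179 to 546 when 1 animal was left out at a time (179 without i.v. 37, 546 without i.v. 42, 492 without i.v. 28, 421 without i.v. 33). The share of these calls that were lower after i.p. cells, 67.9%, was 46.7% in limma on log2(TPM + 1) and 54.2% with the surrogate variable. The number of immediate early genes among them was 13 with voom quality weights, and 5 to 9 under all other alternatives, counted after seeing the data. The median of all genes moved by less than 0.1 under each.

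Log2 fold changes of named genes that changed sign are given next; in the report these were small or rested on the kidneys that stood apart. Without the 4 libraries they were Slc22a13 0.52, Havcr1 -0.06, Lcn2 -0.06, Umod 0.47, Slc12a3 -0.03, Lrp2 0.01, Pecam1 -0.07, Cd68 -0.20, Cd3e -0.21, Cd74 -0.04, Slc22a7 0.72, Slc6a18 0.37, Ppargc1a -0.12 and Angptl4 -0.20, and in the fit of both groups only the values were the same to 2 decimals except Lcn2 with -0.05. With voom quality weights they were Slc22a13 0.43, Spp1 -0.04, Havcr1 -0.24, Lcn2 -0.18, Umod 0.60, Slc12a3 -0.07, Lrp2 0.15, Pecam1 -0.11, Cd68 -0.09, Cd3e -0.10, Cubn 0.07, Slc22a7 1.0, Slc6a18 0.51, Ppargc1a -0.21, Angptl4 -0.22, Slc27a2 0.16, Gzmb 0.28, Nkg7 0.30 and Rsad2 -0.15. With the surrogate variable they were Havcr1 -0.00, Umod 0.32, Pecam1 -0.04, Col1a1 -0.04, Cd68 -0.18, Cd3e -0.13, Cd74 -0.13 and Angptl4 -0.06. In limma on log2(TPM + 1) Umod was 0.10 and Krt8 0.02, and Umod was 0.00 without a filter and in the fit of 12 samples. Leaving out 1 animal at a time gave ranges across 0 for Angptl4 (-0.16 to 0.37), Cd3e (-0.19 to 0.29), Cd68 (-0.18 to 0.23), Cd74 (-0.06 to 0.25), Dnajb11 (-0.03 to 0.09), Havcr1 (-0.15 to 0.54), Krt8 (-0.13 to 0.12), Lcn2 (-0.01 to 0.48), Nkg7 (-0.35 to 0.09), Pdgfra (-0.26 to 0.09), Pecam1 (-0.06 to 0.08), Ppargc1a (-0.08 to 0.19), Slc12a3 (-0.11 to 0.39) and Umod (-0.20 to 0.34). The causes were not tested. With 6 animals a group, 82.9% of genes had intervals inside a doubling, so smaller route differences are not excluded by these data.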

Other observations

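Further list members, not named above, also had an unadjusted p under 0.05 in edgeR. All had an adjusted p of 1 and were named after their values were seen. Lower after i.p. cells in both fits were Per1, a clock gene that glucocorticoids and cAMP induce (-0.79, and -0.95 without the 4 libraries), Sgk1, the kinase that raises sodium uptake (-0.65 and -0.67), and F3, tissue factor (-0.44 and -0.50). Cftr, the chloride channel of cyst fluid secretion, gave -1.15 with all animals and 0.41 without the 4 libraries, and Cyp11b2, aldosterone synthase, -0.53 and -0.26. Bag3, a chaperone partner, gave -0.28 and -0.09, and Pex11a, which divides peroxisomes, -0.54 and -0.19. Higher after i.p. cells were Gstm3 (0.82 and 0.63), a glutathione transferase, and the glycolytic genes Ldha (0.18 and 0.13) and Pfkp (0.21 and 0.05), the 2 of 16 glycolysis genes at an unadjusted p, against 0.689% of all genes in that direction; both missed the threshold without the 4 libraries (0 of 16). Below the unadjusted threshold only when the 4 libraries were left out were, among others, Nfkbia, the inhibitor of NF-kappa B (-0.51), and the clock repressor Bhlhe40 (-0.37).

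Of the 48 lists, 33 held no gene at an unadjusted p. Of 29 lists with a median of at least 0.1 in size, 13 changed sign without the 4 libraries and 22 became smaller. The 9 thick ascending limb genes went from 0.27 to 0.42. The 6 red blood cell genes had medians of 0.58 and 0.68, and their scores ran from -1.31 to 1.16 after i.p. cells and from -2.60 to 0.93 after i.v. cells; the left kidneys were frozen before the animals were perfused. The heat shock list had a median of -0.03, the ER stress list 0.02, the hypoxia list 0.00 and the cAMP and vasopressin list -0.01.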
